A study of Homo sapiens with 12 samples.

Results

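The 10 genes described here were the immediate-early and AP-1 genes ARC, FOS, FOSB, FOSL1, JUN, JUNB, EGR1, EGR3, IER3 and ATF3, read from a table of exon read counts for 28395 genes. ARC was chosen by its measured interaction of EHF and CDX1 in these libraries, and the 9 others were chosen by name for the gene class they belong to, with earlier results of these data known. ARC is therefore described without a test, and the 9 others were tested within the fit over all 15853 genes that reached 0.5 CPM (read counts scaled to library size) in at least 3 libraries. All 10 genes passed that filter. Immediate-early genes are transcribed within minutes of a growth factor, stress or depolarizing signal, because the factors that activate them are already present in the resting cell. Many of them encode transcription factors, among them the Fos and Jun proteins, which pair as AP-1 dimers and carry the signal on to later genes. In the colonic epithelium AP-1 acts downstream of MAP kinase signalling and is known for its part in proliferation, wound repair and tumour growth.

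The promoters of EGR1 and JUNB are shown because they were the members whose upstream bases held any of the searched motifs, among the 6 of 10 members with a 300-base window in the RefSeq table of GRCh38.p14. Each window ran from 250 bases before to 50 bases after the annotated start of transcription. In the EGR1 stretch (chr5:138465271-138465415, plus strand, 208 to 64 bases upstream of the start) the capitals mark an EGR site followed by a pair of CArG boxes, the element bound by serum response factor. The JUNB stretch (chr19:12791422-12791448, plus strand, 64 to 38 bases upstream) holds in capitals an ETS site on the minus strand, the site class of the family to which EHF belongs.
EGR1: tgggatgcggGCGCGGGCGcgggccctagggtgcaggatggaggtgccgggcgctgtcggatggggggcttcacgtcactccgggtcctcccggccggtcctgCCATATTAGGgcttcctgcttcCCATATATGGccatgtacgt
JUNB: atcggagcgcACTTCCGtggctgacta
The CArG boxes began 105 and 83 bases upstream of the EGR1 start, the EGR site 198 bases upstream, and the ETS site of JUNB 54 bases upstream. Both strands were searched, and motifs were allowed to overlap. Of 27305 windows of the same length, 1.29% held a CArG box, 9.28% the EGR site GCGNGGGCG and 7.23% the ETS site CGGAAGT. None of the 6 members' windows held the cyclic AMP response element TGACGTCA (1.98% of windows), the AP-1 site TGANTCA (7.76%) or the CDX site TTTATNG (10.1%), which says only that these letters are not in these windows.

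RNA-seq compared 4 stable lines of HCT116, a human colorectal cancer cell line, with 3 libraries per line, to ask how the ETS factor EHF and the caudal homeobox factor CDX1 act alone and together. HCT116-EV cells carried the empty pcDNA3.1 plasmid and HCT116-EHF cells the same plasmid with EHF, both as geneticin-resistant clones. HCT116-CDX1 cells were a sorted GFP-positive population carrying an MSCV-IRES-GFP retrovirus with CDX1, and HCT116-EHF+CDX1 cells were geneticin-resistant clones obtained after EHF was transfected into HCT116-CDX1 cells. All lines grew in DMEM-F12 with fetal calf serum, and HCT116-EV was the control for all, although it carried no retrovirus. Line, clone and transgene cannot be told apart in this design, and the labels do not say whether the libraries of a line came from separate cultures. The study describes its RNA-seq clustering as drawn from biological replicates, but gives a smaller number of them than the libraries deposited per line, so p-values measure only the spread between these libraries.

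Library totals ran from 13523007 to 74186741 reads. EHF averaged 299 CPM in HCT116-EV, 19312 in HCT116-EHF cells, 12.3 in HCT116-CDX1 cells and 18708 in HCT116-EHF+CDX1, and CDX1 averaged 525 CPM in HCT116-CDX1 cells and 5419 in HCT116-EHF+CDX1 but had at most 4 reads in any other library. The lines with CDX1 thus also differed in CDX1 level, and the lines without the EHF plasmid in EHF level. The 7 colonic epithelial markers were detected in every line and summed to between 2731 and 3341 CPM per library in HCT116-CDX1 cells and between 4473 and 5671 CPM elsewhere. KRT8, KRT18 and KRT19 were lowest in HCT116-CDX1, while EPCAM and ELF3 were highest there. In contrast, 5 immune markers summed to at most 20.2 CPM, nearly all of it LYZ in HCT116-EHF+CDX1 (17.8 to 19.4 CPM), and 3 endothelial markers to at most 1.87 CPM. The 5 neuronal markers summed to 24.2 to 82.2 CPM. Of the 5 fibroblast markers, COL1A1, a collagen chain, was at 167 to 219 CPM in HCT116-CDX1 cells and 32.6 to 73.5 CPM elsewhere, PDGFRB was at most at 1.38 CPM, and COL1A2, DCN and LUM were at most at 0.133 CPM.

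HCT116-EV replicate 3 stood apart from replicates 1 and 2, and the immediate-early genes were among the genes in which it did. It was the highest HCT116-EV library for all 10 genes, from 1.70-fold over the mean of the other two for FOSL1 to 13.8-fold for EGR3. Among all tested genes the median of this difference was 0.08 on the log2 scale, and 15.4% of genes were higher by at least 1. The comparisons of the 10 genes with HCT116-EV are therefore given with and without this library. The second feature that moved with a line was the level of 6 heat shock genes, chaperones induced by protein damage: they summed to between 44119 and 63011 CPM in the HCT116-CDX1 libraries and between 2202 and 5447 CPM in the 9 others. Their part in the results below was not tested.

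**Figure D1:**
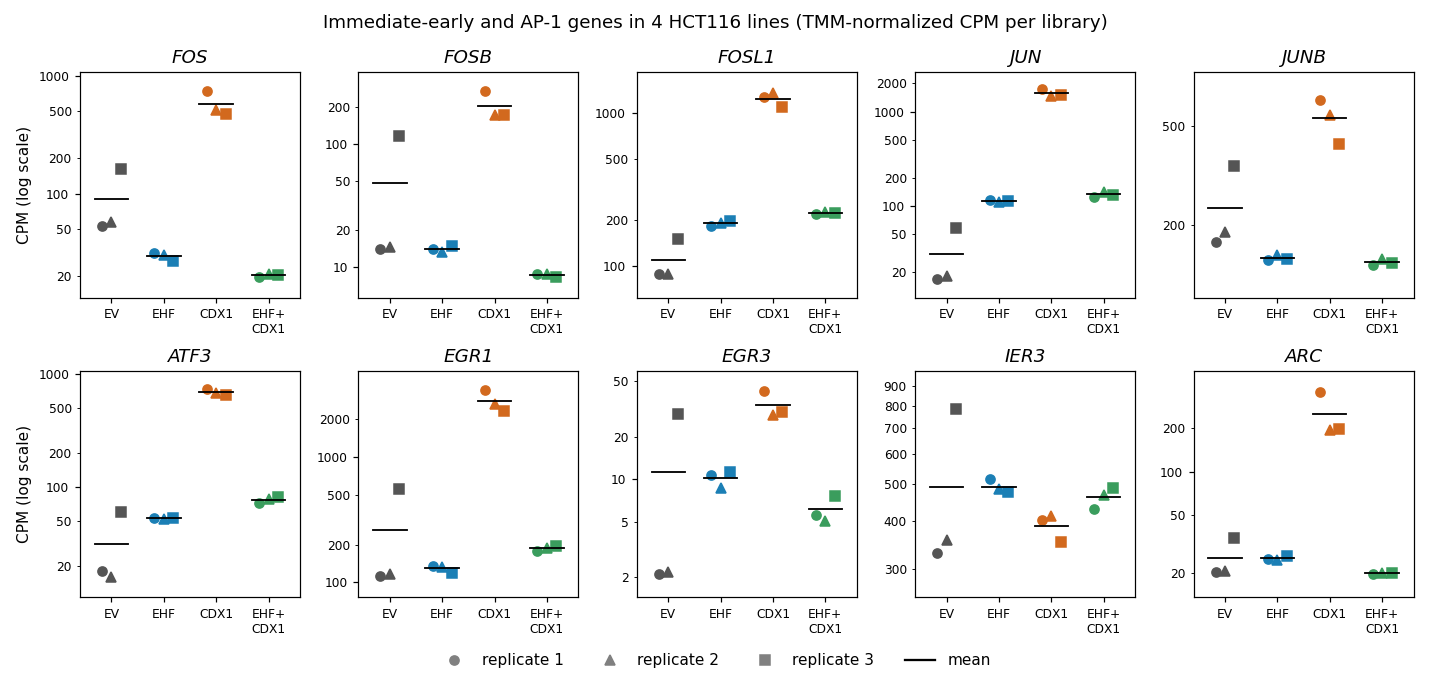
TMM-normalized CPM on log axes of the 10 genes in the 12 libraries, with 1 panel per gene, 1 point per library, marker shapes for replicates 1 to 3 and a bar at the mean of each line. In 8 panels the 3 HCT116-CDX1 points lie above all others; the exceptions are EGR3, where HCT116-EV replicate 3 falls between them at 29.5 CPM, and IER3.

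Across the lines the same broad order appeared for 8 of the 10 genes, with HCT116-CDX1 above the 3 other lines in every library. ARC, chosen by its interaction, is among these 8. The share of all tested genes separated in this way was not counted, so the 8 are a description only. Of the 9 tested genes, 7 were higher and 0 lower in HCT116-CDX1 than in HCT116-EV (edgeR test against a 1.5-fold change, adjusted p of 0.05), against 21.3% of all tested genes higher and 23.3% lower. In HCT116-EHF+CDX1 against HCT116-CDX1, 8 were lower and 0 higher, against a background of 18.7% lower and 22.3% higher. HCT116-EHF against HCT116-CDX1 gave 7 lower and 0 higher, against 19.1% and 21.2%. For each of these directions with 0 calls, 0 members also passed at an unadjusted p of 0.05, and limma and DESeq2 called 0.

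Differences between the 3 other lines were smaller and mixed in direction. HCT116-EHF against HCT116-EV gave 1 gene higher (5.68% of all tested genes) and 1 lower (2.65%). HCT116-EHF+CDX1 against HCT116-EV gave 2 higher (7.30%) and 2 lower (3.13%). HCT116-EHF+CDX1 against HCT116-EHF gave 0 higher (2.49%) and 0 lower (0.189%), with 0 at an unadjusted p of 0.05 in edgeR and 0 calls in limma and DESeq2. The median log2 fold change of the 9 genes was 2.67 in HCT116-CDX1 against HCT116-EV, -3.16 in HCT116-EHF+CDX1 against HCT116-CDX1 and -0.06 in HCT116-EHF+CDX1 against HCT116-EHF, beside medians over all genes of -0.03, 0.04 and 0. Without HCT116-EV replicate 3, 4 genes were higher and 1 lower in HCT116-EHF than in HCT116-EV, 8 were higher in HCT116-CDX1, 4 were higher and 1 lower in HCT116-EHF+CDX1, and 8 were lower in HCT116-EHF than in HCT116-CDX1. The backgrounds were then 9.47% and 3.596%, 26.2%, 11.2% and 4.403%, and 22.7%. The comparisons with HCT116-EV share its libraries.

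**Figure D2:**
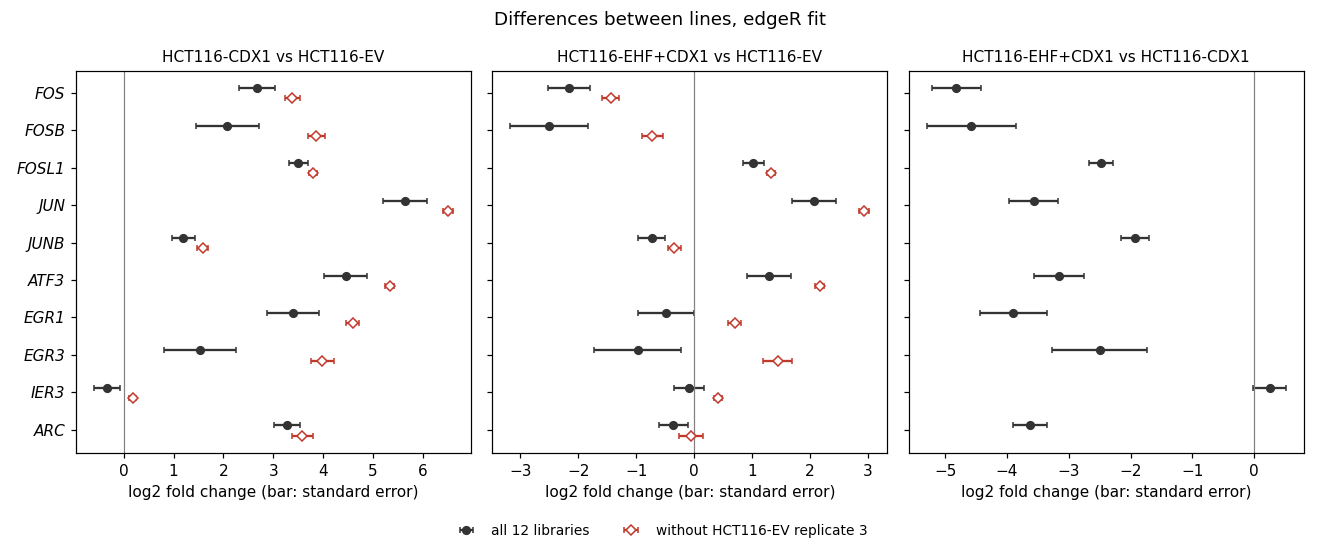
Log2 fold changes of the 10 genes in 3 comparisons (x axis, edgeR fit; bars are standard errors), from all 12 libraries (filled) and without HCT116-EV replicate 3 (open). ARC is drawn as a description. Leaving the library out moved JUN in HCT116-CDX1 against HCT116-EV from 5.64 to 6.50 and turned EGR3 in HCT116-EHF+CDX1 against HCT116-EV from -0.97 to 1.44.

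FOS (Entrez 2353, chr14:75278828-75282230) encodes c-Fos, the founding Fos subunit of AP-1. Its level was 53.7, 57.3 and 161 CPM in the HCT116-EV libraries, 31.5, 30.5 and 26.9 in HCT116-EHF cells, 751, 514 and 472 in HCT116-CDX1 cells, and 19.8, 21.0 and 20.5 in HCT116-EHF+CDX1. The 4 lines did not overlap, and the order ran from HCT116-CDX1 through HCT116-EV and HCT116-EHF to HCT116-EHF+CDX1. FOS was 6.36-fold higher in HCT116-CDX1 than in HCT116-EV (log2 fold change 2.67 ± 0.36, SE, edgeR adjusted p = 0.00012), or 10.4-fold without HCT116-EV replicate 3, and 28.3-fold lower in HCT116-EHF+CDX1 than in HCT116-CDX1 (log2 fold change -4.82 ± 0.40, edgeR adjusted p = 1.9e-06). In HCT116-EHF+CDX1 it was 4.45-fold below HCT116-EV (edgeR adjusted p = 0.0034, and 2.72-fold without HCT116-EV replicate 3, adjusted p = 2.2e-05). In HCT116-EHF it was 3.07-fold below HCT116-EV (edgeR adjusted p = 0.033), or 1.89-fold without that library (adjusted p = 0.032). This last call was lost in 11 of 20 alternatives, among them limma, the fit of those lines alone, HCT116-CDX1 replicate 2 left out and any 1 library of HCT116-EHF or HCT116-EHF+CDX1 left out (p up to 0.12), with a range from 0.0048 to 0.19. FOS in HCT116-EHF and HCT116-EHF+CDX1 did not pass the test (log2 fold change -0.53 ± 0.35, edgeR adjusted p = 1).

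FOSB (Entrez 2354, chr19:45467996-45475179), which encodes a second Fos subunit, was at 13.8, 14.6 and 116 CPM in HCT116-EV. It was at 13.8, 13.04 and 14.8 CPM in HCT116-EHF cells, 271, 172 and 173 in HCT116-CDX1 cells, and 8.75, 8.67 and 8.29 in HCT116-EHF+CDX1. Apart from HCT116-EV replicate 3, HCT116-EV and HCT116-EHF overlapped and HCT116-EHF+CDX1 lay below both. FOSB was 23.9-fold lower in HCT116-EHF+CDX1 than in HCT116-CDX1 (log2 fold change -4.58 ± 0.72, edgeR adjusted p = 0.00029). It was 4.22-fold higher in HCT116-CDX1 than in HCT116-EV (edgeR adjusted p = 0.028), or 14.5-fold without HCT116-EV replicate 3 (adjusted p = 1.4e-12). That call was lost without HCT116-EV replicate 1 (adjusted p = 0.064), HCT116-EV replicate 2 (adjusted p = 0.069) or HCT116-CDX1 replicate 1 (adjusted p = 0.092), and with only the compared lines fitted (adjusted p = 0.096), in a range from 1.4e-12 to 0.096. The 5.66-fold lower level in HCT116-EHF+CDX1 than in HCT116-EV (edgeR adjusted p = 0.045) rested on HCT116-EV replicate 3, without which the difference was 1.64-fold and was not called (adjusted p = 0.38). The call was lost in 14 of 19 alternatives, with adjusted p-values between 0.0081 and 0.38, also without any 1 library of the 3 other lines. In HCT116-EHF against HCT116-EV, FOSB was not called (log2 fold change -1.81 ± 0.64, edgeR adjusted p = 0.21), except without HCT116-EV replicate 1 (adjusted p = 0.045), and was at -0.02 without replicate 3.

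FOSL1 (Entrez 8061, chr11:65892049-65900545) encodes FRA1, a Fos subunit whose transcription is sustained under continued ERK signalling and is common in invasive epithelial tumours. It was at 88.8, 89.0 and 151 CPM in HCT116-EV, 183, 192 and 197 in HCT116-EHF cells, 1272, 1349 and 1100 in HCT116-CDX1 cells, and 219, 226 and 223 in HCT116-EHF+CDX1. Unlike FOS, FOSL1 was above every HCT116-EV library in each of the 3 other lines. It was 11.3-fold higher in HCT116-CDX1 than in HCT116-EV (log2 fold change 3.50 ± 0.19, edgeR adjusted p = 6.6e-08), or 13.95-fold without HCT116-EV replicate 3, and 5.56-fold lower in HCT116-EHF+CDX1 than in HCT116-CDX1 (log2 fold change -2.48 ± 0.19, edgeR adjusted p = 1.5e-06). Against HCT116-EV it was 2.03-fold higher in HCT116-EHF+CDX1 (edgeR adjusted p = 0.037, and 2.51-fold without HCT116-EV replicate 3, adjusted p = 2.2e-08). The call was lost without HCT116-EV replicate 1 or 2 (adjusted p = 0.12 each) and without any 1 library of HCT116-EHF or HCT116-EHF+CDX1 or HCT116-CDX1 replicate 1 (p up to 0.081), as well as in DESeq2 (adjusted p = 0.16), with only the compared lines fitted (adjusted p = 0.14) and on the deposited log2 RPKM (adjusted p = 0.057), in a range from 2.2e-08 to 0.16. In HCT116-EHF its log2 fold change over HCT116-EV was 0.80 ± 0.18 and did not pass the 1.5-fold test (edgeR adjusted p = 0.29), but did without HCT116-EV replicate 3 (1.10, adjusted p = 2.7e-06).

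JUN (Entrez 3725, chr1:58780791-58784047) encodes c-Jun, the AP-1 subunit that is activated by the JNK kinases and can drive its own transcription. Its level was 16.8, 17.99 and 59.1 CPM in HCT116-EV, 116, 111 and 112 in HCT116-EHF cells, 1745, 1475 and 1504 in HCT116-CDX1 cells, and 125, 141 and 132 in HCT116-EHF+CDX1. Each of the 3 other lines was above every HCT116-EV library. JUN was 49.8-fold higher in HCT116-CDX1 than in HCT116-EV (log2 fold change 5.64 ± 0.44, edgeR adjusted p = 7e-07), the widest difference between these lines among the 10 genes, and 90.5-fold higher without HCT116-EV replicate 3. It was 11.9-fold lower in HCT116-EHF+CDX1 than in HCT116-CDX1 (log2 fold change -3.57 ± 0.40, edgeR adjusted p = 2.3e-05). In HCT116-EHF+CDX1 it remained 4.20-fold above HCT116-EV (edgeR adjusted p = 0.0063, and 7.62-fold without HCT116-EV replicate 3, adjusted p = 9.4e-14), a call that was lost with only the compared lines fitted (adjusted p = 0.081, in a range from 9.4e-14). In HCT116-EHF it was 3.58-fold above HCT116-EV (edgeR adjusted p = 0.019) and 6.49-fold without that library (adjusted p = 3.9e-13). This call was lost without HCT116-EV replicate 2 (adjusted p = 0.054) or HCT116-EHF replicate 1 (adjusted p = 0.051) and with only the compared lines fitted (adjusted p = 0.16), in a range from 3.9e-13 to 0.16.

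JUNB (Entrez 3726, chr19:12791486-12793315), a Jun subunit that activates transcription more weakly than c-Jun and can oppose it, was at 171, 187 and 345 CPM in HCT116-EV, 145, 151 and 146 in HCT116-EHF cells, 635, 554 and 421 in HCT116-CDX1 cells, and 137, 146 and 141 in HCT116-EHF+CDX1. HCT116-EHF and HCT116-EHF+CDX1 overlapped and lay below all HCT116-EV libraries. Its 2.29-fold higher level in HCT116-CDX1 than in HCT116-EV (log2 fold change 1.19 ± 0.23, edgeR adjusted p = 0.0073) was the smallest of the 7 called and was 2.998-fold without HCT116-EV replicate 3. With quantile normalization in limma it was 0.86 on the log2 scale and was not called (adjusted p = 0.28, in a range from 2.2e-08 to 0.32 over all alternatives). In HCT116-EHF+CDX1 it was 3.80-fold lower than in HCT116-CDX1 (log2 fold change -1.93 ± 0.23, edgeR adjusted p = 0.00012). Against HCT116-EV its log2 fold changes of -0.67 ± 0.23 in HCT116-EHF and -0.73 ± 0.23 in HCT116-EHF+CDX1 did not pass the test (edgeR adjusted p = 0.7 and 0.5), and were -0.28 and -0.34 without HCT116-EV replicate 3. JUNB overlaps HOOK2 in the annotation, which had at most 7341 reads per library, and how far their reads are separated was not tested.

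ATF3 (Entrez 467, chr1:212565407-212620777), a stress-induced bZIP factor that dimerizes with Jun proteins, followed JUN in its order. It was at 17.96, 15.95 and 59.5 CPM in HCT116-EV, 52.7, 52.1 and 52.6 in HCT116-EHF cells, 730, 684 and 644 in HCT116-CDX1 cells, and 71.8, 78.5 and 80.4 in HCT116-EHF+CDX1. HCT116-EV and HCT116-EHF overlapped only through HCT116-EV replicate 3. ATF3 was 21.8-fold higher in HCT116-CDX1 than in HCT116-EV (log2 fold change 4.45 ± 0.43, edgeR adjusted p = 4.2e-06; 40.4-fold without HCT116-EV replicate 3) and 8.93-fold lower in HCT116-EHF+CDX1 than in HCT116-CDX1 (log2 fold change -3.16 ± 0.40, edgeR adjusted p = 6.9e-05). The log2 fold changes over HCT116-EV were 0.74 ± 0.37 in HCT116-EHF and 1.29 ± 0.38 in HCT116-EHF+CDX1 and did not pass the test (edgeR adjusted p = 0.75 and 0.12). Without HCT116-EV replicate 3 both did, at 3.09-fold (adjusted p = 8.7e-10) and 4.51-fold (adjusted p = 3.2e-12). Over all alternatives these p-values ranged from 8.7e-10 to 1 and from 3.2e-12 to 0.41.

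EGR1 (Entrez 1958, chr5:138465479-138469303), the zinc finger factor whose promoter is shown above and which serum response factor induces, had, with FOSL1, the highest level per length of the 10 genes in HCT116-CDX1, and these 2 differed there by less than the spread between replicates. Its level was 114, 117 and 559 CPM in HCT116-EV, 136, 133 and 119 in HCT116-EHF cells, 3402, 2646 and 2305 in HCT116-CDX1 cells, and 177, 188 and 197 in HCT116-EHF+CDX1. HCT116-EV replicates 1 and 2 were below all other libraries, and HCT116-EV overlapped HCT116-EHF and HCT116-EHF+CDX1 only through replicate 3. EGR1 was 10.6-fold higher in HCT116-CDX1 than in HCT116-EV (log2 fold change 3.40 ± 0.52, edgeR adjusted p = 0.00024) and 24.2-fold higher without HCT116-EV replicate 3. It was 14.9-fold lower in HCT116-EHF+CDX1 than in HCT116-CDX1 (log2 fold change -3.90 ± 0.54, edgeR adjusted p = 0.00011). Its differences from HCT116-EV in HCT116-EHF (log2 -1.03 ± 0.48) and HCT116-EHF+CDX1 (log2 -0.49 ± 0.48) did not pass the test, and their sign turned without HCT116-EV replicate 3, at 0.16 and 0.70.

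EGR3 (Entrez 1960), a related zinc finger factor that EGR1-type signals induce, had the lowest level per length of the 10 genes in every line. It was at 2.11, 2.18 and 29.5 CPM in HCT116-EV, 10.7, 8.63 and 11.3 in HCT116-EHF cells, 42.5, 28.9 and 30.0 in HCT116-CDX1 cells, and 5.57, 5.09 and 7.67 in HCT116-EHF+CDX1. HCT116-EV replicate 3 alone placed HCT116-EV among the HCT116-CDX1 libraries. EGR3 was 5.65-fold lower in HCT116-EHF+CDX1 than in HCT116-CDX1 (log2 fold change -2.50 ± 0.77, edgeR adjusted p = 0.028). That call was lost without HCT116-CDX1 replicate 1 (adjusted p = 0.08) or without replicate 1, 2 or 3 of HCT116-EHF+CDX1 (adjusted p = 0.084, 0.09 and 0.054), in a range from 6.6e-10 to 0.09. Its 2.88-fold difference between HCT116-CDX1 and HCT116-EV was not called (edgeR adjusted p = 0.16), and was 15.8-fold and called without HCT116-EV replicate 3 (adjusted p = 6.4e-11, in a range up to 0.32) and also called on the deposited log2 RPKM (adjusted p = 0.042). Without that library EGR3 was also 4.77-fold higher in HCT116-EHF (adjusted p = 8.1e-06) and 2.71-fold higher in HCT116-EHF+CDX1 (adjusted p = 0.0038) than in HCT116-EV, where the fit of all libraries gave log2 values of -0.20 ± 0.73 and -0.97 ± 0.75. It overlaps the non-coding gene LOC107986924.

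IER3 (Entrez 8870, chr6:30743199-30744547), which encodes a short-lived protein that modulates cell survival and ERK signalling, was the exception. It was at 331, 358 and 787 CPM in HCT116-EV, 514, 484 and 476 in HCT116-EHF cells, 402, 413 and 353 in HCT116-CDX1 cells, and 432, 469 and 487 in HCT116-EHF+CDX1. HCT116-CDX1 libraries lay below those of HCT116-EHF and HCT116-EHF+CDX1, and HCT116-EV overlapped all 3 lines. No comparison passed the test: the log2 fold changes were -0.34 ± 0.26 in HCT116-CDX1 against HCT116-EV (edgeR adjusted p = 0.82) and 0.25 ± 0.26 in HCT116-EHF+CDX1 against HCT116-CDX1 (edgeR adjusted p = 0.96). Without HCT116-EV replicate 3 the first became 0.18, and the differences from HCT116-EV in HCT116-EHF and HCT116-EHF+CDX1 went from 0 and -0.09 to 0.51 and 0.42, still not called (edgeR adjusted p = 1 each). IER3 overlaps the antisense gene IER3-AS1, and no strand setting of the counting is given in the sources used here, so their reads cannot be told apart.

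ARC (Entrez 23237), an effector gene best known in neurons, where its protein acts at synapses and its transcript follows neuronal activity, was the gene chosen by its interaction. Its level was 20.5, 20.9 and 35.3 CPM in HCT116-EV, 25.2, 24.8 and 26.5 in HCT116-EHF cells, 354, 192 and 197 in HCT116-CDX1 cells, and 19.9, 20.1 and 20.0 in HCT116-EHF+CDX1. The line means were 25.6 ± 8.42, 25.5 ± 0.873, 248 ± 91.9 and 20.0 ± 0.0941 CPM (SD, n = 3 each). HCT116-EV and HCT116-EHF overlapped, and HCT116-EHF+CDX1 lay below every other library by a margin of less than 1 CPM from the lowest HCT116-EV library. As a description, ARC was 9.63-fold higher in HCT116-CDX1 than in HCT116-EV, or 11.97-fold without HCT116-EV replicate 3, and 12.4-fold lower in HCT116-EHF+CDX1 than in HCT116-CDX1. Its log2 differences from HCT116-EV were -0.01 in HCT116-EHF and -0.36 in HCT116-EHF+CDX1, and 0.30 and -0.05 without that library. Of the 5 neuronal markers, GRIN1, a glutamate receptor subunit, was lowest in HCT116-CDX1 (12.3 to 14.4 CPM, against 26.3 to 80.2 CPM elsewhere), while RBFOX3, which encodes the neuronal nuclear antigen NeuN, was highest there (10.2 to 10.8 CPM, against 0.560 to 3.19 CPM elsewhere). SYN1, SNAP25 and CAMK2A were at most at 1.14, 0.184 and 0.462 CPM in any library. The neuronal markers were not tested.

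The interaction, the log2 difference with EHF among cells with CDX1 minus that among cells without, was -3.62 ± 0.35 (SE) for ARC. It was the lowest of the 1183 genes that averaged 1 or more on the log2 CPM scale and whose HCT116-EHF+CDX1 libraries all lay above, or all below, every other library. The next lowest in that set were DNAJB4, a heat shock co-chaperone, at -3.42, FOS at -3.20 and ANXA10, an annexin, at -3.20. Over all tested genes ARC ranked 301 from the lowest. The 5 genes whose log2 CPM over the 12 libraries was most like that of ARC were MORC3 and P4HA2 (Pearson's r of 0.996 each), HSBP1L1 and FOXO3 (0.995 each) and DNAJA4 (0.993), among 12447 genes. By Pearson's r the members were less like it, from 0.963 for EGR1 to -0.242 for IER3. By Spearman's rank correlation this did not hold for FOSB (0.944), FOS and EGR3 (0.867 each), which were above those 5 genes (0.832 to 0.86). The other members ran from -0.126 for IER3 to 0.839 for JUNB on that measure. These values describe libraries that fall into lines, with 1 line far above the rest, and carry no test.

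The difference between HCT116-EHF and HCT116-EV was set beside the difference between HCT116-EHF+CDX1 and HCT116-CDX1 for each gene. With CDX1 present, 9 of the 10 genes were lower in the cells with the EHF plasmid in every library, with log2 differences from -4.82 to -1.93, and IER3 was 0.25 higher. ARC is among these 9 and was chosen by its interaction, so its place there carries no weight. The share of all tested genes separated in this way was not counted. Without CDX1 the differences were smaller in size for all 10 genes and took both signs, from -1.81 for FOSB to 1.84 for JUN. The interaction was -5.41 ± 0.54 for JUN, -3.90 ± 0.54 for ATF3, -3.27 ± 0.26 for FOSL1 and -3.20 ± 0.50 for FOS. It was -2.87 ± 0.69 for EGR1, -2.77 ± 0.91 for FOSB, -2.30 ± 1.05 for EGR3, -1.25 ± 0.32 for JUNB and 0.25 ± 0.36 for IER3. ARC was thus not the lowest of the 10, since JUN and ATF3 had lower interactions. Those genes were outside the set in which ARC ranked lowest, because their HCT116-EHF+CDX1 libraries lay between those of other lines. Without HCT116-EV replicate 3 the interaction of FOSB was -4.55, that of EGR3 -4.80 and that of IER3 -0.27.

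**Figure D3:**
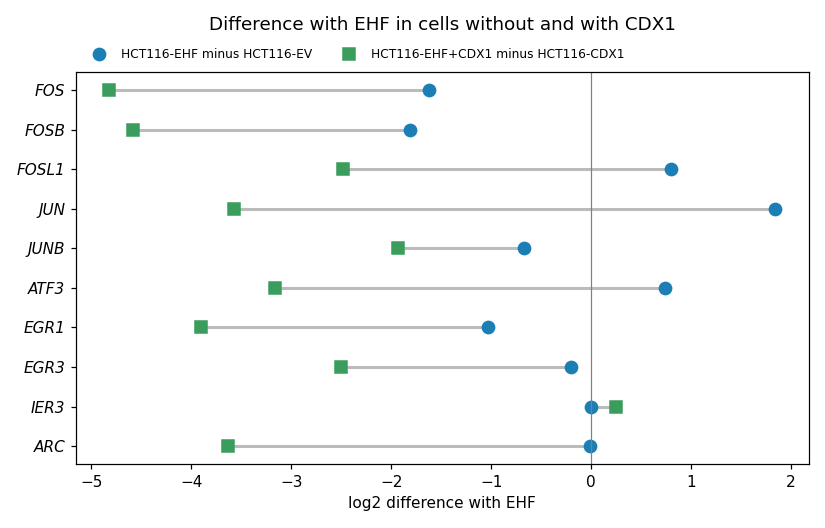
Log2 difference with EHF (x axis) for each of the 10 genes, without CDX1 (circles, HCT116-EHF minus HCT116-EV) and with CDX1 (squares, HCT116-EHF+CDX1 minus HCT116-CDX1). The squares of 9 genes lie between -4.82 and -1.93, while the circles lie between -1.81 and 1.84.

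Levels of different genes were compared only per length, on the RPKM scale (reads scaled to gene length and depth), from the deposited log2 RPKM values. The summed RPKM of the 4 Fos family genes FOS, FOSB, FOSL1 and FOSL2 was 136 ± 72.7 in HCT116-EV, 144 ± 3.9998 in HCT116-EHF cells, 818 ± 93.5 in HCT116-CDX1 cells and 156 ± 3.50 in HCT116-EHF+CDX1 (SD, n = 3 each). FOSL1 made up 50.4 ± 8.43% of that sum in HCT116-EV, 83.3 ± 1.18% in HCT116-EHF cells, 65.5 ± 4.999% in HCT116-CDX1 cells and 88.8 ± 0.0714% in HCT116-EHF+CDX1. The FOS share ran in the opposite order, at 30.3%, 9.57%, 25.6% and 5.87%. The Fos family sums of both lines with the EHF plasmid lay within the SD of HCT116-EV, but the FOSL1 share was larger in each of their libraries than in any HCT116-EV library.

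Among the Jun family genes JUN, JUNB and JUND the sum was 278 ± 92.5 RPKM in HCT116-EV, 222 ± 2.67 in HCT116-EHF cells, 905 ± 45.4 in HCT116-CDX1 cells and 228 ± 8.59 in HCT116-EHF+CDX1 (SD, n = 3 each). JUN held 3.14 ± 1.45% of it in HCT116-EV, 16.5 ± 0.554% in HCT116-EHF cells, 38.4 ± 2.89% in HCT116-CDX1 cells and 18.8 ± 0.567% in HCT116-EHF+CDX1. JUNB and JUND together held the rest, and JUNB was 48.0% of the sum in HCT116-EV and 25.6% in HCT116-CDX1. In HCT116-CDX1, EGR1 ranked 85th and FOSL1 87th of all tested genes by mean log2 RPKM, against 878th and 898th in HCT116-EV. IER3 was within the highest 176 genes in each line.

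**Figure D4:**
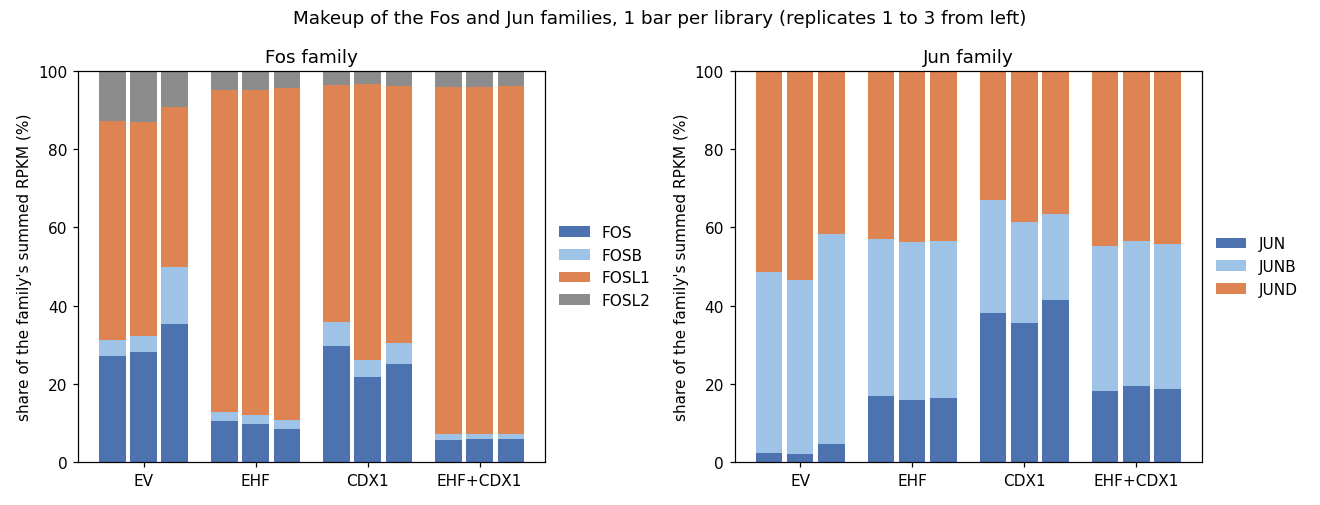
Share of each gene in the summed RPKM of the Fos family (left) and the Jun family (right), y axis in percent, 1 stacked bar per library. FOSL1 covers 82.2% to 88.8% of the Fos bar in the 6 libraries with the EHF plasmid and 40.7% to 70.4% in the 6 without it.

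The spread between libraries of a line differed between lines. The median SD of log2 CPM over the 10 genes was 0.953 in HCT116-EV and 0.293 in HCT116-CDX1, beside 0.346 and 0.148 over all tested genes. In HCT116-EHF and HCT116-EHF+CDX1 it was 0.058 and 0.060, beside 0.071 and 0.088 over all genes. HCT116-CDX1 replicate 1 was the highest of its line for 8 of the 10 genes, up to 1.84-fold over the lowest library for ARC, and had the largest heat shock sum of its line, at 63011 CPM. Between replicates 2 and 3 of that line the sums went opposite ways: the heat shock sums were 44119 and 53958 CPM, and the sums over the 10 genes 8029 and 7201 CPM. Single genes were mixed: ARC, FOSB, JUN and EGR3 were slightly higher in replicate 3 than in replicate 2, and the other members were lower. HCT116-EV replicate 3 had the lowest heat shock sum of all libraries, 2202 CPM, through HSPA8 and HSP90AA1, which were at 880 and 815 CPM there and at 1896 CPM or more and 2746 CPM or more in replicates 1 and 2. HSPH1 and DNAJB1 were also lower in that library, at 169 and 180 CPM, against 277 CPM or more and 197 CPM or more. HSPA1A and HSPA1B were not: HSPA1A was at 9.24 CPM, against 5.94 and 6.11, and HSPA1B at 149 CPM, against 140 and 157.

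All 6 heat shock genes were higher in HCT116-CDX1 than in HCT116-EV and all 6 lower in HCT116-EHF+CDX1 than in HCT116-CDX1, with medians of 4.55 and -4.43 on the log2 scale. Among all tested genes 21.3% were higher in the first comparison and 18.7% lower in the second. HSPA1A, the stress-inducible Hsp70 gene, was at 7.10 ± 1.86 CPM in HCT116-EV, 7.37 ± 1.83 in HCT116-EHF cells, 1169 ± 130 in HCT116-CDX1 cells and 7.34 ± 3.62 in HCT116-EHF+CDX1 (SD, n = 3 each). It shares near-identical sequence with HSPA1B, so their split is uncertain. Between HCT116-EHF+CDX1 and HCT116-EV, 0 of the 6 passed the test, 0 at an unadjusted p of 0.05 and 0 in limma and DESeq2. Among all tested genes 7.30% were higher and 3.13% lower there, so 0 of 6 is near the share of all genes. Apart from EGR3 and IER3, the members were thus highest in the same 3 libraries as the heat shock genes. The part of one in the other was not tested.

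**Figure D5:**
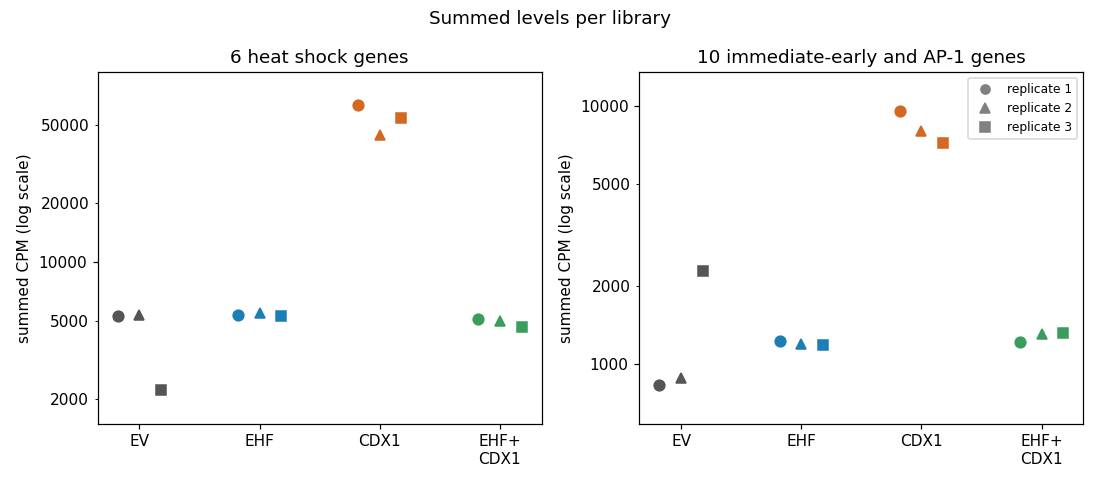
Summed CPM on log axes of the 6 heat shock genes (left) and of the 10 immediate-early and AP-1 genes (right), 1 point per library. The HCT116-CDX1 libraries lie at 44119 to 63011 CPM on the left and at 7201 to 9604 CPM on the right, above the 9 others in both panels.

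Other genes of the pathway were counted from lists written from general knowledge. Each count of higher and lower genes is to be read against the shares of all tested genes given above: 21.3% and 23.3% in HCT116-CDX1 against HCT116-EV, 22.3% and 18.7% in HCT116-EHF+CDX1 against HCT116-CDX1, and 7.30% and 3.13% in HCT116-EHF+CDX1 against HCT116-EV. Leaving out HCT116-EV replicate 3 gave shares of 26.2% and 24.9%, 25.8% and 22.3%, and 11.2% and 4.403%. Of 11 tested other AP-1 family genes, 7 were higher and 0 lower in HCT116-CDX1 than in HCT116-EV (0 lower at an unadjusted p of 0.05 in edgeR and 0 in limma and DESeq2), and 2 were higher, a share near that of all genes, and 7 lower in HCT116-EHF+CDX1 than in HCT116-CDX1. Against HCT116-EV, 2 were higher and 1 lower in HCT116-EHF+CDX1, or 5 and 1 without HCT116-EV replicate 3. The list medians were 1.33, -1.36 and 0.51 on the log2 scale in those comparisons, beside -0.03, 0.04 and -0.03 over all genes. With HCT116-EV replicate 3 left out, 8 were higher and 0 lower in HCT116-CDX1 than in HCT116-EV, and the medians against HCT116-EV were 1.61 with CDX1 alone and 0.62 with both factors. MAFF, a small Maf protein without an activation domain, averaged 21.3 ± 19.8 CPM in HCT116-EV, 45.5 ± 0.666 in HCT116-EHF cells, 509 ± 108 in HCT116-CDX1 cells and 51.8 ± 4.401 in HCT116-EHF+CDX1. FOSL2, which encodes FRA2, was lower in HCT116-EHF+CDX1 than in both HCT116-EV (log2 fold change -1.25 ± 0.17, edgeR adjusted p = 0.004, and -0.96 without HCT116-EV replicate 3) and HCT116-CDX1 (-2.57 ± 0.18, adjusted p = 8.6e-07). BATF2, an interferon-induced bZIP factor, was 1.52 higher on the log2 scale in HCT116-EHF+CDX1 than in HCT116-EV (edgeR adjusted p = 0.0065) and 1.88 higher without that library. In HCT116-EHF cells FOSL2 averaged 55.3 CPM and BATF2 2.15 CPM, against 52.2 and 7.29 CPM in HCT116-EHF+CDX1.

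Of 47 other immediate-early genes, 32 were higher and 3 lower in HCT116-CDX1 than in HCT116-EV, with a median of 1.77, and 1 was higher and 33 lower in HCT116-EHF+CDX1 than in HCT116-CDX1, with a median of -1.77. When HCT116-EV replicate 3 was left out, 35 were higher and 3 lower in HCT116-CDX1 than in HCT116-EV, with a median of 2.54. DUSP1, the phosphatase that switches off MAP kinases, fell by 5.16 on the log2 scale between HCT116-CDX1 and HCT116-EHF+CDX1 (SE 0.38, edgeR adjusted p = 6e-07), from 509 to 14.2 CPM. The nuclear receptor NR4A3 and the matrix protein CCN1 fell by 4.76 and 3.84 there (adjusted p = 1.2e-07 and 0.00073). Against HCT116-EV, 4 genes were higher and 5 lower in HCT116-EHF+CDX1, and 19 and 5 without HCT116-EV replicate 3, with medians of 0.01 and 0.38. The kinase SGK1 rose from 1.77 ± 0.386 to 10.96 ± 1.21 CPM (log2 fold change 2.68 ± 0.27, edgeR adjusted p = 5.1e-05), and the small GTPase GEM by 2.13 (adjusted p = 0.00011), or by 2.46 and 2.45 without that library. In HCT116-EHF cells SGK1 already averaged 12.8 CPM and GEM 19.8 CPM, beside 22.1 CPM of GEM in HCT116-EHF+CDX1. EDN1, a vasoconstrictor peptide, was at 0.0861, 0.0947 and 0.919 CPM in HCT116-EV and at a mean of 2.92 CPM in HCT116-EHF+CDX1 (0.590 CPM in HCT116-EHF cells and 2.83 CPM in HCT116-CDX1 cells). Its log2 fold change of 2.70 (edgeR adjusted p = 0.014) was set by HCT116-EV replicate 3, without which the fitted fold was 4.91 times as large (adjusted p = 2.7e-06), against libraries with at most 3 reads.

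Of 22 upstream kinases and factors, 8 were higher and 4 lower in HCT116-CDX1 than in HCT116-EV, with a median of 0.16, and 2 were higher and 8 lower in HCT116-EHF+CDX1 than in HCT116-CDX1, with a median of -0.39. After HCT116-EV replicate 3 was left out, 8 were higher and 5 lower in HCT116-CDX1 than in HCT116-EV, with a median of 0.19. ELK3, a ternary complex partner of serum response factor, fell by 2.18 (SE 0.23, edgeR adjusted p = 2.5e-05) and MAPK8, which encodes JNK1, by 1.55 (adjusted p = 4.6e-06) between HCT116-CDX1 and HCT116-EHF+CDX1. RPS6KA5, the kinase MSK1, was 1.60 higher there (adjusted p = 0.00045). Between HCT116-EHF+CDX1 and HCT116-EV 0 were called in either direction, with 0 at an unadjusted p of 0.05 in edgeR and 0 in limma and DESeq2, and 2 were higher without HCT116-EV replicate 3.

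Of 21 tested AP-1 target genes, 8 were higher and 2 lower in HCT116-CDX1 than in HCT116-EV, 4 were higher and 4 lower in HCT116-EHF+CDX1 than in HCT116-CDX1 cells, and 7 were higher and 1 lower in HCT116-EHF+CDX1 than in HCT116-EV. The 4 genes in each direction in the second comparison were a share near that of all genes. Without HCT116-EV replicate 3, 12 were higher and 2 lower in HCT116-CDX1 than in HCT116-EV, with a median of 2.08, 6 were higher and 8 lower in HCT116-EHF+CDX1 than in HCT116-CDX1, and 14 were higher and 1 lower in HCT116-EHF+CDX1 than in HCT116-EV, with a median of 1.19. With all libraries the list medians were 1.16, -0.22 and 0.54, and 1.07, -0.22 and 0.54 with genes at or under 3 reads per library in a line set at that limit. HMOX1, heme oxygenase 1, fell by 3.70 (SE 0.12, edgeR adjusted p = 3e-09) and the laminin chain gene LAMB3 by 3.37 (adjusted p = 0.00042) from HCT116-CDX1 to HCT116-EHF+CDX1, while SPP1, which encodes osteopontin, rose by 3.39 (SE 0.29, adjusted p = 3.5e-06), from 0.228 to 2.44 CPM. VIM, the mesenchymal intermediate filament gene, and SPP1 had at most 3 and 2 reads in any HCT116-EV library, and averaged 3.37 and 2.44 CPM in HCT116-EHF+CDX1. In HCT116-EHF cells VIM and SPP1 averaged 0.944 and 3.32 CPM. In HCT116-CDX1 cells VIM averaged 3.47 CPM, near its level in HCT116-EHF+CDX1.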

How the data were processed

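Per the labels and the study's methods, reads were aligned to GRCh38 with Subread 2.0.0, uniquely mapped reads were kept and exon overlaps were counted with featureCounts 2.0.0, without a stated strand setting. The raw counts of 28395 genes were deposited by the authors, along with log2 RPKM values for 15853 genes, which they made with limma voom, quantile normalization and exon length. No other per-library column was used.

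Counts were fitted in R 4.3.3 with edgeR 4.0.16 over all 12 libraries with the 4 lines as groups. The filter of 0.5 CPM in 3 or more libraries removed 0.0585% of counts, and TMM factors were 0.799 to 0.845 in HCT116-CDX1 and 0.973 to 1.09 elsewhere. Calls were made with glmTreat for changes beyond 1.5-fold, with Benjamini-Hochberg adjustment over all 15853 genes and a limit of 0.05. Fold changes and SEs came from the quasi-likelihood F test of the same fit, and correlations used log2 CPM with a prior count of 2. A count of 0 allows up to 3 reads, or 0.0375 to 0.207 CPM, which covers counting error only.

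The members and lists were chosen with earlier results of these data known. Named were the members, up to 3 called genes with the largest change per pathway list in HCT116-EHF+CDX1 against HCT116-EV and against HCT116-CDX1, the 5 genes most like ARC, the 3 next lowest interactions, and EHF and CDX1. Some genes that this rule named are not reported here. HSPA1A and the marker lists were given as checks of the libraries. The alternatives used limma 3.58.1 and DESeq2 1.42.0, RLE factors, no filter, the test against no change, only the lines compared, a replicate block, the deposited log2 RPKM and each library left out. The fits were tested on simulated counts. Promoter windows came from RefSeq on GRCh38.p14, and figures were drawn with matplotlib 3.10.9 in Python 3.11.15.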

Additional observations from a re-analysis of the deposited data

Results flagged for a closer look

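For FOSL1 and JUN the difference with EHF pointed in opposite directions with and without CDX1. Every HCT116-EHF library was above every HCT116-EV library, while every HCT116-EHF+CDX1 library was below every HCT116-CDX1 library. The log2 differences were 0.80 and -2.48 for FOSL1, an interaction of -3.27, and 1.84 and -3.57 for JUN, an interaction of -5.41. Without CDX1, FOSL1 did not pass the 1.5-fold test (edgeR adjusted p = 0.29), and the JUN call (edgeR adjusted p = 0.019) was lost in 3 of 20 alternatives. ATF3 also took both signs (0.74 and -3.16), but its HCT116-EHF and HCT116-EV libraries overlapped. The interaction itself was not tested. The HCT116-CDX1 libraries that enter it also held the high heat shock sums given above.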

How the results depend on the processing

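Adjusted p-values were recomputed under up to 20 alternatives for each of the 9 tested genes and 6 comparisons. The counts of members called were within 1.5 times those reported in HCT116-CDX1 against HCT116-EV, HCT116-EHF+CDX1 against HCT116-CDX1 and HCT116-EHF against HCT116-CDX1, and stayed at 0 in HCT116-EHF+CDX1 against HCT116-EHF. In HCT116-EHF against HCT116-EV, 2 members were called, against 1 with limma voom, 1 on the deposited log2 RPKM, 1 with a replicate block, 4 in the test against no change, 0 with only the lines compared, and 0 to 5 with 1 library left out (0 without HCT116-EHF replicate 1, 5 without HCT116-EV replicate 3). In HCT116-EHF+CDX1 against HCT116-EV, 4 were called, against 2 with DESeq2, 2 on the deposited log2 RPKM, 1 with only the lines compared, 3 with the block, and 2 to 5 with 1 library left out. DESeq2 gave no adjusted p for 2 members, FOSB and EGR3, so its counts cover 7.

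Values that changed sign were not called in the fit of all libraries. For IER3 in HCT116-EHF against HCT116-EV, 0 on the log2 scale, the alternatives gave 0 with RLE factors and with DESeq2, 0.21 with limma voom, 0.17 on the deposited log2 RPKM, 0.02 with only the lines compared, 0.06 with the block and -0.22 to 0.51 with 1 library left out. In HCT116-EHF+CDX1 against HCT116-EV, IER3 was at 0.19 with limma voom, 0.15 on the deposited values and -0.31 to 0.42 with 1 library left out, and in HCT116-CDX1 against HCT116-EV at -0.6 to 0.18 over all alternatives, with -0.56 to 0.18 for libraries left out. Its interaction ranged from -0.27 to 0.47. EGR3 in HCT116-EHF against HCT116-EV was at 0.20 with limma voom, 0.73 on the deposited values, 0.32 with the block and -0.67 to 2.25 with 1 library left out, and in HCT116-EHF+CDX1 against HCT116-EV at -1.45 to 1.44. EGR1 was at -1.39 to 0.16 in HCT116-EHF and -0.86 to 0.70 in HCT116-EHF+CDX1 against HCT116-EV with 1 library left out, and at 0.10 with limma voom and 0.05 on the deposited values in the latter. The highest of these values in HCT116-EV comparisons came without HCT116-EV replicate 3, and the cause was not tested.

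Replicate numbers did not pair the libraries: over 18 same-numbered pairs the correlation of deviations from the line means was -0.065 to 0.08, with 0 over 0.1. The list counts in HCT116-CDX1 against HCT116-EV were added after seeing the data. Low levels limit EGR3, which had 46 to 49 reads in HCT116-EV replicates 1 and 2.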
